A study of Homo sapiens with 6 samples.

Results

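The proteasome genes were taken as the 49 rows, of 39396 in the count table, whose symbol is PSMA to PSMG followed by a number, plus POMP. They comprise 14 genes of the constitutive core, 5 linked to the immunoproteasome, 17 structural genes of the regulatory particle, 8 for assembly factors, 3 for other activators and an inhibitor, and 2 for tissue-specific core subunits. The 6 RNA sequencing libraries carry the label of wild-type RKO, a human colorectal carcinoma line, and 3 come from cells given olaparib, a PARP inhibitor, and 3 from cells given its solvent, DMSO. Cells of both groups were plated a day ahead of the treatment, whose dose and duration the labels do not state. The replicates are not described as separate cultures: each p-value then reflects library-to-library spread, possibly technical. These are bulk libraries, in which fewer cells of a type and less RNA per cell cannot be told apart.

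The proteasome degrades proteins tagged with ubiquitin. Its barrel-shaped core has outer rings of alpha subunits (PSMA genes) and inner rings of beta subunits (PSMB genes), and PSMB5, PSMB6 and PSMB7 carry the proteolytic sites. In immunoproteasomes these sites are replaced by PSMB8, PSMB9 and PSMB10, subunits induced by interferon gamma and abundant in immune cells, which favour peptides for MHC class I presentation. The PA28 activator formed by PSME1 and PSME2 is induced by interferon gamma as well. The regulatory particle, made of PSMC ATPases and PSMD subunits, binds, unfolds and feeds substrates into the core.

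The libraries held 28715138 to 42423785 counts. Both groups carry the same cell line label, yet lists of cell type markers differed between them. All 7 markers listed for embryonic kidney lines reached a mean of 1 CPM (counts scaled to a common library size) in DMSO, summing to 258 to 456 CPM, against 2.58 to 4.17 CPM in olaparib, where NEFL, PAX2 and LIN28B had no count. The 10 colonic epithelial markers summed to 242 to 311 CPM in DMSO and 807 to 1089 CPM in olaparib, mostly KRT8 and KRT18. CDX2 went the other way, with no count in olaparib and 26.5, 24.4 and 22.5 CPM in DMSO. CDX1 had no count in any library. EPCAM was 4.69-fold higher in olaparib and CDH1 was not called. KRT19, KRT20, VIL1 and CEACAM5 had means of at most 0.205 CPM in either group and were not tested. The 8 markers of blood cells, which use immunoproteasomes, summed to 3.54 to 4.21 CPM in olaparib and 5.52 to 6.74 CPM in DMSO, and CD3E had no count. The 6 fibroblast markers summed to 101 to 136 CPM in olaparib and 93.0 to 100 CPM in DMSO, most of it COL1A1, which was 1.65-fold higher in olaparib, whereas the other 4 tested were lower, LUM 89.9-fold. The 5 endothelial markers summed to 23.0 to 24.7 CPM in olaparib and 1.33 to 1.68 CPM in DMSO. Most of the olaparib sum was CDH5, at 20.4, 20.6 and 20.5 CPM. PECAM1 was 6.07-fold higher in olaparib, KDR was 13.8-fold lower, VWF was not called and TEK was not tested. The part of any of these cell types in the results was not tested. Treatment and a difference in cell source cannot be told apart in this design, so each difference below is one between libraries as labelled.

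Because interferon induces these genes, the stretches around the start sites of the immunoproteasome genes are shown with the interferon-stimulated response element, searched on both strands as GAAA, any 2 bases and GAAA, in capitals. Each runs 5′ to 3′ on the gene's strand from 100 bases before the RefSeq start to 20 bases from it (GRCh38.p14), and for TAP1, the divergent neighbour of PSMB9, from 150 to 51 bases before it.
PSMB8 (chr6:32844028-32844147, minus strand): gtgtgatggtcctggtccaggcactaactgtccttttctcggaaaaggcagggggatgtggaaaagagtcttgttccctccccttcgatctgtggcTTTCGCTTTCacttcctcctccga
PSMB10 (chr16:67936831-67936950, minus strand): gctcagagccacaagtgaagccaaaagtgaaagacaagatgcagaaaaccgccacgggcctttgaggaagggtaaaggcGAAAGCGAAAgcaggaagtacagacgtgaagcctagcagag
PSME1 (chr14:24136094-24136213, plus strand): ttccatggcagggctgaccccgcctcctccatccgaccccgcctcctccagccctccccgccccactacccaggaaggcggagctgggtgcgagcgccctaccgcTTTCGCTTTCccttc
PSME2 (chr14:24146591-24146710, minus strand): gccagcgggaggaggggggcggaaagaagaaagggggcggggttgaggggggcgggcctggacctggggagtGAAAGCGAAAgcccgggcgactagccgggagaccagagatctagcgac
PSMB9 (chr6:32854092-32854211, plus strand): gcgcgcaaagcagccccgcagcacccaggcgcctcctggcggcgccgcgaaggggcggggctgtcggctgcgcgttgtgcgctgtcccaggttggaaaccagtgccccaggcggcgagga
TAP1 (chr6:32853755-32853854, minus strand): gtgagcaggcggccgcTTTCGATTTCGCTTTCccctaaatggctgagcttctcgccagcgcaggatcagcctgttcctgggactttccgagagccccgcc

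The motif lay in the window from 250 bases before to 50 after the start for 4 of the 5 immunoproteasome genes, all but PSMB9. It was in 2 of 10 constitutive core genes with a window (PSMA4 and PSMB4), 0 of 16 of the regulatory particle and 1 of 7 assembly factors (PSMG4). Of all 27305 genes with a window 4.38% held it. PSMB9 and TAP1 run in opposite directions. Of 2 RefSeq starts of TAP1, the nearer lies 488 bases from the PSMB9 start and the other 1431 bases from it. The window of that nearer TAP1 start, shown above, holds 2 overlapping matches, the closer ending 354 bases upstream of the PSMB9 start. Windows were given for 43 of the 49 genes, and PSMA7, PSMB1, PSMB6, PSMB7, PSMD4 and PSMG3 had none. A match describes letters and does not show binding.

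The 3 inducible catalytic subunits were higher in olaparib, and both PA28 genes were not called different. PSMB8, which replaces PSMB5, stood at 142, 127 and 125 CPM in the olaparib libraries and at 0.285, 0.135 and 0.0678 CPM in DMSO. In raw counts these were 4064, 3874 and 3538 against 12, 4 and 3, so the gene was close to undetected in DMSO and among the well expressed proteasome genes in olaparib. The ratio of summed counts was 801 (95% exact binomial interval 512 to 1330, counting error only). The interval is too narrow if both reads of a pair were counted, and 1490 to 1696 genes per library held 2 counts against 557 to 742 with 1. The log2 fold change was 9.61 ± 0.24 (SE), with an adjusted p of 7.57e-11 in edgeR, as for all adjusted values below. It was 10.36 without DMSO replicate 1, which holds 12 of the 19 DMSO counts.

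PSMB9, which replaces PSMB6, was at 47.7, 46.7 and 45.1 CPM in olaparib and 6.67, 7.25 and 5.58 CPM in DMSO. It was thus expressed in both groups, without overlap, and 7.18-fold higher in olaparib (log2 2.84 ± 0.13, SE, adjusted p = 2.85e-09). PSMB10, which replaces PSMB7, was lowest of the 3 in olaparib, at 11.6, 7.38 and 9.91 CPM against 1.99, 3.27 and 2.40 CPM. The groups did not overlap, and the difference was 3.79-fold (log2 1.92 ± 0.25, SE, adjusted p = 1.78e-05).

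PSME1 was at 91.4, 81.3 and 83.2 CPM in olaparib and 73.1, 81.6 and 69.1 CPM in DMSO (log2 0.19 ± 0.10, SE, adjusted p = 0.103). PSME2 was at 56.3, 56.7 and 59.6 CPM against 60.4, 74.0 and 56.9 CPM (log2 -0.15 ± 0.11, SE, adjusted p = 0.255). Both groups overlapped for each gene. PSME1 passed without DMSO replicate 2 (log2 0.25, adjusted p = 0.0294). The start sites of PSME1 and PSME2 shown above hold the same interferon motif as those of PSMB8 and PSMB10.

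**Figure D1:**
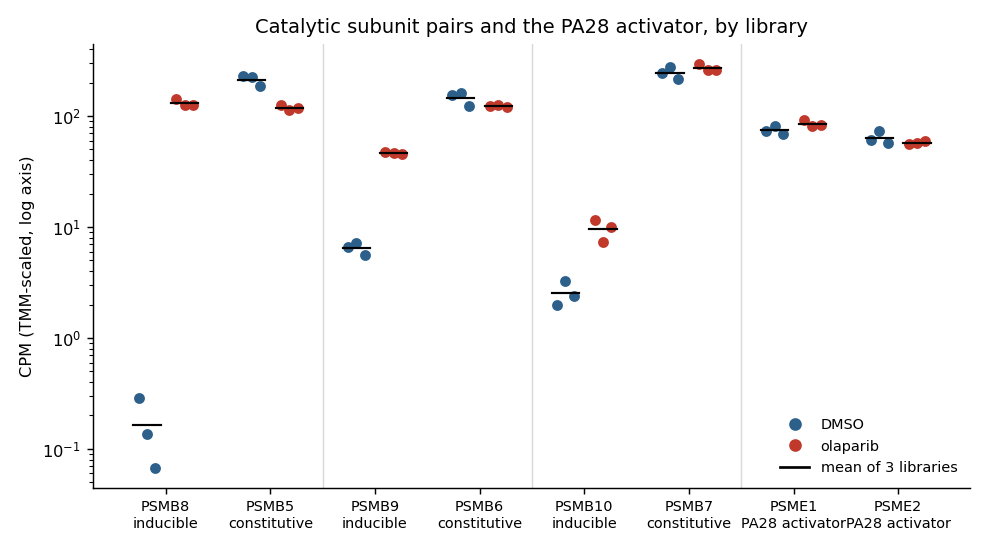
Expression (CPM, log axis) of each inducible subunit beside its constitutive partner, and of the PA28 genes, with a point per library and a bar at the mean of 3. PSMB8 lies below 0.3 CPM in every DMSO library and above 120 CPM in every olaparib library, while the PSME1 and PSME2 groups overlap.

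PSMB8 and PSMB9 lie on opposite strands of chromosome 6, with overlapping spans in GENCODE release 29 (32840717 to 32844703 and 32844136 to 32859585, hg38). The RefSeq start of PSMB9 used above is further along, at 32854192. The nearer TAP1 start, at 32853704, lies between it and the PSMB8 start at 32844047. In GENCODE, 20.6% of PSMB8 exon bases overlap genes on the other strand. The antisense gene PSMB8-AS1 was at 2.62, 3.01 and 4.14 CPM in olaparib and 0.190, 0.135 and 0.158 CPM in DMSO, also higher in olaparib (log2 4.29 ± 0.39, SE, adjusted p = 7.15e-07). No source used here says whether the counts use strand, so reads from the overlapping bases cannot be told apart. PSMB10 is on chromosome 16 (67934502 to 67937087), and 58.3% of its coding bases are also annotated to another gene on its strand.

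The partners of these subunits were lower or not called. PSMB5, the chymotrypsin-like site, was at 125, 114 and 119 CPM in olaparib and 228, 226 and 187 CPM in DMSO, without overlap (1.80-fold lower, log2 -0.84 ± 0.11, SE, adjusted p = 1.62e-05). PSMB6, the caspase-like site, was at 124, 125 and 120 against 155, 162 and 123 CPM, where DMSO replicate 3 fell within the olaparib range (log2 -0.25 ± 0.11, SE, adjusted p = 0.0586). Without that library PSMB6 passed (log2 -0.38, adjusted p = 0.00588), as it did with library size alone (adjusted p = 0.0178) and with no filter beyond 1 count (adjusted p = 0.0418). PSMB7, the trypsin-like site, was at 294, 263 and 258 against 243, 278 and 214 CPM and overlapped (log2 0.15 ± 0.12, SE, adjusted p = 0.271).

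Counts divided by the length of the principal transcript allow the partners to be compared within a library. PSMB8 made up 56.7, 56.2 and 54.8% of the length-scaled counts of PSMB8 plus PSMB5 in olaparib, and 0.143, 0.0685 and 0.0418% in DMSO. The pair was thus close to even in olaparib, at 117 ± 8.20 CPM per kilobase for PSMB8 and 92.0 ± 4.25 for PSMB5 (SD, n = 3), and almost wholly PSMB5 in DMSO. PSMB9 made up 29.5, 28.9 and 29.1% of its pair with PSMB6 in olaparib and 4.48, 4.64 and 4.70% in DMSO. PSMB10 made up 3.07, 2.21 and 2.99% of its pair with PSMB7 in olaparib and 0.655, 0.936 and 0.891% in DMSO, a level that the annotation overlap of PSMB10 leaves uncertain.

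The log2 ratio of inducible to constitutive counts, which needs no length, differed between the groups by 10.73 for PSMB8 to PSMB5, 3.09 for PSMB9 to PSMB6 and 1.77 for PSMB10 to PSMB7. The olaparib libraries were above the DMSO libraries in each of the 3 pairs. An exact two-sided permutation test gave p = 0.1 for each, the smallest that 3 against 3 libraries allow, and adjustment over 3 pairs leaves 0.1.

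**Figure D2:**
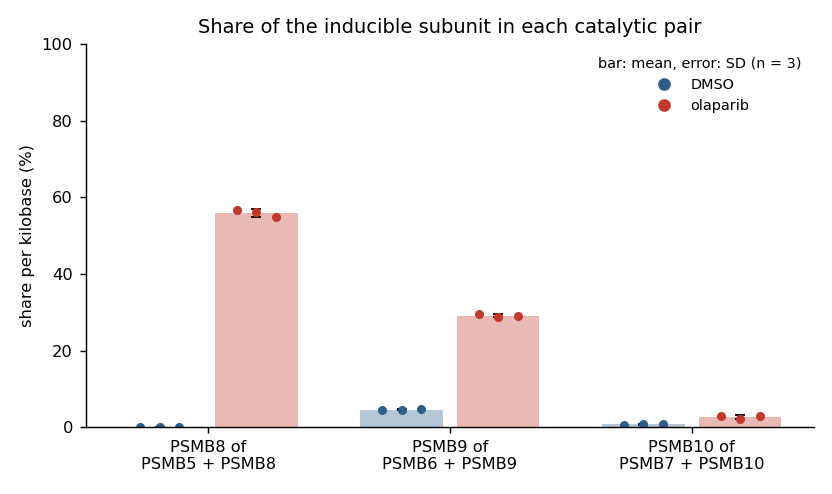
Share of the inducible subunit in the length-scaled counts of each catalytic pair (percent), with bars at the mean, error bars for the SD of 3 libraries and a point per library. PSMB8 takes more of its pair than PSMB5 in olaparib, PSMB9 takes 28.9 to 29.5% of its pair and PSMB10 2.21 to 3.07%.

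Of the 5 immunoproteasome genes 3 were higher, 0 lower and 2 not called, with a median log2 fold change of 1.92. The mean log2 CPM of the 5 immunoproteasome genes minus that of the core was -0.90, -0.97 and -0.91 in olaparib and -3.68, -3.65 and -3.78 in DMSO, a difference of 2.78 between groups. For PSMB8, PSMB9 and PSMB10 alone the difference was 4.64, and for PSME1 and PSME2 it was -0.02. These are differences of log values with no correction for length, and the prior count of 2 lessens that of PSMB8.

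Of the 47 proteasome genes that passed the expression filter, 34 were called (72.3%), 15 higher and 19 lower in olaparib, beside 75.7% of all 17078 genes tested (35.4% higher and 40.3% lower). The share was thus near that of all genes. The groups did not overlap for 35 of the 47, beside 79.4% of all genes. Changes of at least 2-fold were called in 10 of them, 6 higher and 4 lower, where 47.0% of all genes had such a call (22.0% higher and 25.0% lower). Log2 fold changes had a median size of 0.47 over these genes and 0.94 over all genes tested. Together the 49 genes summed to 5939, 5634 and 5693 CPM in olaparib and 6532, 6543 and 5555 CPM in DMSO, so the groups overlapped in total expression.

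**Figure D3:**
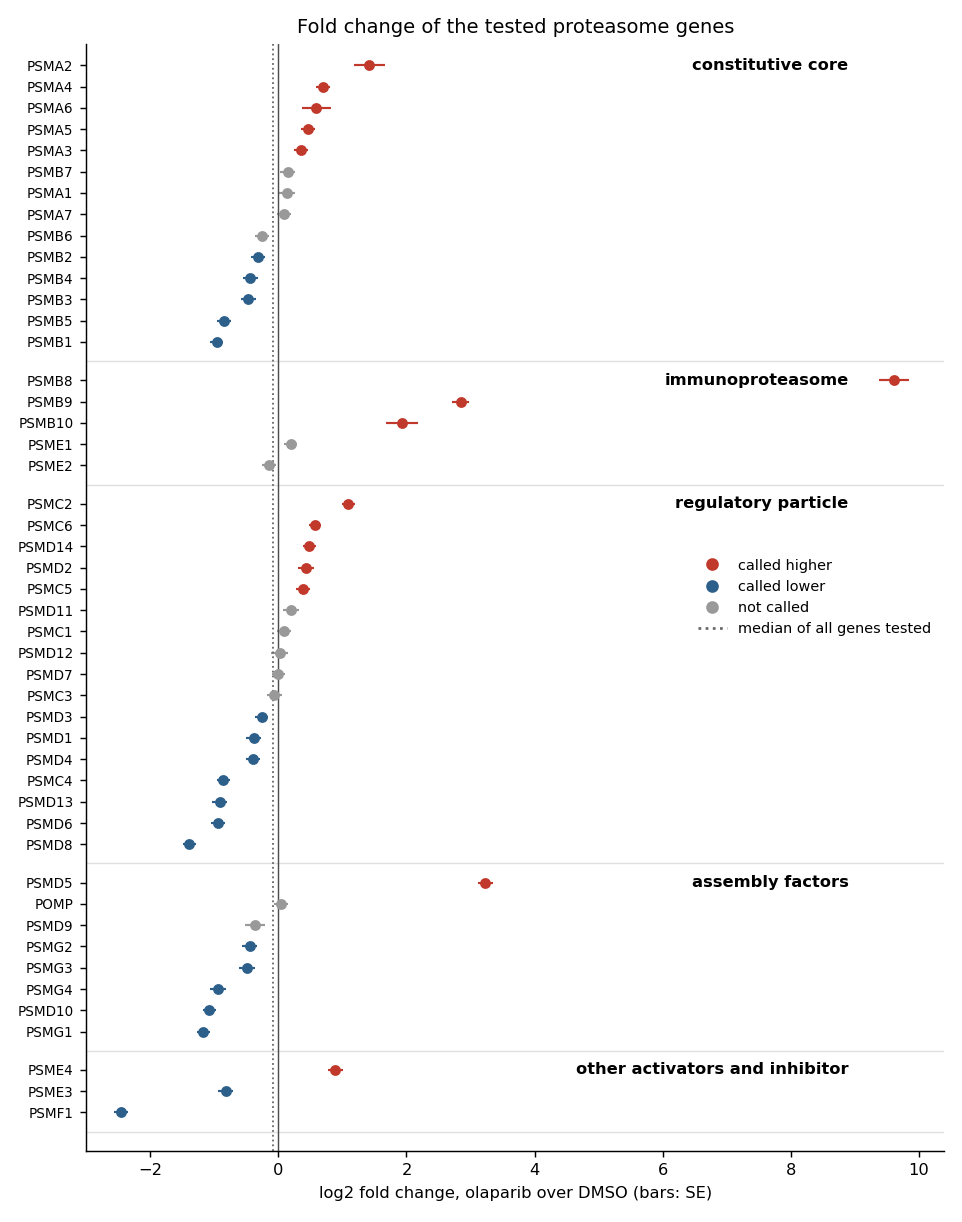
Log2 fold change of olaparib over DMSO for the 47 tested genes by class, with SE as bars and colour for the call at an adjusted p of 0.05. PSMB8, PSMB9, PSMB10 and PSMD5 lie far to the right and PSMF1 far to the left, while the core and the regulatory particle spread to both sides of 0.

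In the constitutive core, 5 genes were higher, 5 lower and 4 were not called, with a median log2 fold change of 0.11, beside -0.09 over all genes. The higher genes were all of the alpha ring and the lower genes all of the beta ring, a split seen after the values were known. PSMA4 was at 264, 241 and 251 CPM in olaparib and 172, 155 and 138 CPM in DMSO, without overlap (1.62-fold higher, adjusted p = 8.43e-05). PSMA5 and PSMA3 were 1.38-fold and 1.28-fold higher. PSMA7, the smallest difference of the core, was at 294, 287 and 297 against 283, 302 and 239 CPM, which overlapped (log2 0.09 ± 0.11, SE). In the beta ring PSMB1, a structural subunit, was at 119, 120 and 108 against 224, 246 and 207 CPM, again without overlap (1.95-fold lower, adjusted p = 3.57e-06). PSMB3, PSMB4 and PSMB2 were 1.38-fold, 1.35-fold and 1.24-fold lower. PSMB2 failed the threshold when olaparib replicate 2 or 3 was left out (adjusted p = 0.0742 and 0.108), and PSMB4 when olaparib replicate 3 was (adjusted p = 0.0532).

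The remaining alpha genes had the lowest levels of the core, and 97.1% of the coding bases of PSMA2, 88.6% of PSMA1 and 70.4% of PSMA6 are also annotated to another gene on the same strand. The sources used here do not say how such reads were counted. PSMA2 was at 4.01, 4.08 and 4.92 CPM in olaparib and 1.61, 1.72 and 1.54 CPM in DMSO, the largest difference of the core (2.67-fold higher, adjusted p = 0.000173). PSMA6 was at 8.06, 5.16 and 6.05 against 4.42, 4.82 and 3.59 CPM (1.5-fold higher, adjusted p = 0.0327). Its call was lost without olaparib replicate 1 (adjusted p = 0.159), without DMSO replicate 3 (adjusted p = 0.129), with library size alone (adjusted p = 0.0515) and with the replicate number as a block (adjusted p = 0.052). PSMA1 was not called (log2 0.14 ± 0.12, SE). Without these 3 genes the core median was -0.25.

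The tissue-specific core subunits were at or near 0. PSMA8, the alpha subunit of testis proteasomes, had no count in any library, which allows up to 0.0678 to 0.106 CPM. PSMB11, the thymus subunit, held 0 counts in olaparib and 2, 3 and 0 counts in DMSO, and neither gene was tested.

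The 17 structural genes of the regulatory particle showed 5 higher, 7 lower and 5 not called, with a median log2 fold change of 0.00. Among the 6 ATPases PSMC2 was at 182, 173 and 175 CPM in olaparib and 86.8, 87.0 and 74.5 CPM in DMSO (2.13-fold higher, adjusted p = 8.40e-07). PSMC6 and PSMC5 were 1.49-fold and 1.31-fold higher. PSMC4 went the other way, 1.81-fold lower (adjusted p = 1.11e-05), and PSMC1 and PSMC3 were not called. Subunits of the same hexamer thus differed in direction.

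Of the 11 PSMD genes of the particle, 2 were higher and 6 lower. PSMD8, a lid subunit, was at 88.1, 90.1 and 84.3 CPM in olaparib and 240, 244 and 205 CPM in DMSO, without overlap (2.62-fold lower, adjusted p = 1.38e-07). The lid subunits PSMD6 and PSMD13 were 1.93-fold and 1.89-fold lower. PSMD14, the lid's deubiquitinase, was 1.4-fold higher, and PSMD2, a large base subunit, 1.35-fold higher. The base scaffold PSMD1 and the ubiquitin receptor PSMD4 were each 1.31-fold lower, and PSMD3 was 1.2-fold lower.

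PSMD7, PSMD11 and PSMD12 were not called. PSMD7 was at 53.5, 54.1 and 59.1 against 60.1, 56.5 and 50.1 CPM, the smallest difference of the class (log2 0.00 ± 0.10, SE). The PSMD3 call (adjusted p = 0.0391) was lost without DMSO replicate 1 (adjusted p = 0.0936) and without olaparib replicate 1, 2 or 3 (adjusted p = 0.0814, 0.0875 and 0.166). It was also lost with the replicate number as a block (adjusted p = 0.0806), with RLE size factors (adjusted p = 0.0502) and with a filter of at least 1 CPM in 3 libraries (adjusted p = 0.0504). PSMD11 passed without DMSO replicate 1 (log2 0.34, adjusted p = 0.00558).

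Assembly factors build the core and the base of the regulatory particle. Here 1 of 8 was higher, 5 were lower and 2 were not called, with a median log2 fold change of -0.47. PSMD5, a chaperone of the base that dissociates from the finished particle, was at 90.3, 85.7 and 86.2 CPM in olaparib and 9.0, 8.63 and 10.2 CPM in DMSO. The groups were far apart, and the difference of 9.39-fold (log2 3.23 ± 0.11, SE, adjusted p = 3.77e-10) was the largest after PSMB8 among the tested proteasome genes. PSMD10 (gankyrin), another base chaperone, was at 62.4, 66.5 and 67.3 against 130, 147 and 138 CPM (2.11-fold lower, adjusted p = 6.93e-07). The third of them, PSMD9, was not called (log2 -0.37 ± 0.16, SE, adjusted p = 0.0505). It passed without DMSO replicate 1 (adjusted p = 0.0185) and with library size alone (adjusted p = 0.0231), and 58.7% of its coding bases are shared with another gene on its strand.

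The 4 PSMG chaperones of the core were all lower. PSMG1, which helps to build the alpha ring, was at 40.1, 40.0 and 40.7 CPM in olaparib and 92.9, 98.4 and 81.6 CPM in DMSO (2.26-fold lower, adjusted p = 5.70e-07). PSMG4, PSMG3 and PSMG2 were 1.92-fold, 1.41-fold and 1.36-fold lower. POMP, the maturation factor that brings beta subunits together, was at 90.8, 85.2 and 92.8 against 87.4, 97.6 and 76.1 CPM and was not called (log2 0.04 ± 0.11, SE).

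Other partners of the core differed as well. PSMF1 (PI31), first described as an inhibitor of the core, was at 33.2, 33.2 and 28.5 CPM in olaparib and 177, 185 and 159 CPM in DMSO. It had the largest fall of all the tested proteasome genes, 5.48-fold (log2 -2.46 ± 0.11, SE, adjusted p = 2.26e-09). PSME3, the nuclear PA28 gamma, was at 134, 138 and 134 against 280, 214 and 223 CPM (1.77-fold lower, adjusted p = 3.71e-05). PSME4, the activator PA200, was at 188, 198 and 208 against 118, 90.2 and 112 CPM (1.85-fold higher, adjusted p = 1.83e-05).

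The median log2 fold change of other tested protein-coding genes within 1 Mb placed each gene beside its chromosomal neighbours. PSMF1 lies on the short arm of chromosome 20 (1113263 to 1189415), where 15 of 18 neighbours were lower, with a median of -1.47. By contrast the 61 neighbours of PSMB8 had a median of 0.04, the 13 of PSMD5 on chromosome 9 a median of 0.39, and the 54 of PSMB10 a median of -0.20. All 7 tested genes on chromosome 14 had neighbours with a median below 0, yet 3 of them were higher (PSMA3, PSMA6 and PSMC6) and 1 lower (PSMB5). Among the 34 called genes, 19 had the sign of their neighbours' median, and 20 with a window of 5 Mb. No test set a gene against its region.

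**Figure D4:**
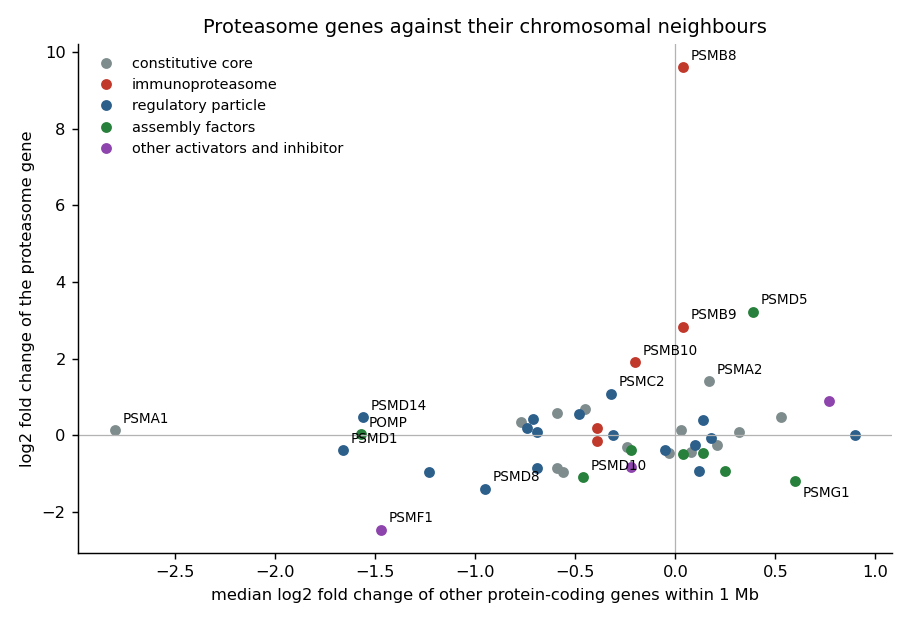
Log2 fold change of each tested proteasome gene against the median of other protein-coding genes within 1 Mb. PSMF1 lies low on both axes, whereas PSMB8, PSMB9 and PSMD5 are high with neighbour medians of 0.04 to 0.39.

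Lists of genes around the proteasome were described by their counts, beside the 75.7% of all genes called. In signalling from interferon gamma to the immunoproteasome, 6 of 11 genes were higher, 4 lower and 1 was not called. NLRC5, a transactivator of MHC class I genes and PSMB9, was at 124, 155 and 155 CPM in olaparib and 18.9, 15.1 and 20 CPM in DMSO (8.05-fold higher, adjusted p = 2.72e-09). IRF1, a factor that binds the interferon motif, was at 27.4, 31.3 and 27.5 against 16.2, 13.7 and 11.8 CPM (2.07-fold higher, adjusted p = 2.95e-05), and STAT2 was 2.55-fold higher. The receptor chain IFNGR2 went the other way, 3.12-fold lower. IRF8, a factor of blood cells, had no count in olaparib and 795 in DMSO, at least 199.9-fold lower if 3 counts are set for the olaparib group as a whole.

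Genes that carry proteasome products to MHC class I were higher in 8 of 9 cases, and CALR was not called. The peptide transporter TAP1, which shares its upstream stretch with PSMB9, was at 150, 155 and 154 CPM in olaparib and 53.4, 56.8 and 49.8 CPM in DMSO (2.87-fold higher, adjusted p = 3.63e-08). TAP2 was 2.50-fold higher, TAPBP, which bridges the transporter to class I molecules, 3.8-fold, and the trimming peptidase ERAP1 6.53-fold. The genes on either side of that stretch were thus both higher, PSMB9 7.18-fold and TAP1 2.87-fold, and the difference between these folds was not tested.

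Of 16 proteasome-associated genes tested, 4 were higher and 4 lower. AKIRIN2, needed for nuclear import of proteasomes, was 2.55-fold lower and PAAF1, which binds the regulatory particle's ATPases, 3.61-fold lower. ZFAND5, which stimulates proteasome activity, was 2.41-fold higher and ECPAS 2.12-fold higher. The small regulatory particle subunits ADRM1 and SEM1, whose symbols lie outside the PSM series, were not called (log2 0.08 ± 0.11 and 0.00 ± 0.11, SE).

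NRF1, encoded by NFE2L1, is the factor that raises proteasome genes when degradation is impaired. NFE2L1 was at 245, 264 and 259 CPM in olaparib and 210, 238 and 261 CPM in DMSO, which overlapped (log2 0.12 ± 0.11, SE, adjusted p = 0.346). In its list 4 of 9 genes were higher and 1 lower. MAFK, a small MAF partner, was at 928, 418 and 450 against 45.0, 65.9 and 53.7 CPM (10.9-fold higher, adjusted p = 3.88e-06), with olaparib replicate 1 far above the other two. MAFF and SYVN1 were 2.66-fold and 1.38-fold higher, and NGLY1, which strips sugars from NRF1, was 1.90-fold lower. The core of the antioxidant response element, TGACNNNGC on either strand, can be bound by NRF1 with small MAF proteins. It was in the windows of 15 of 43 proteasome genes (34.9%), and in those of 16.1% of all genes with a window. The classes differed, with 2 of 10 genes of the constitutive core (20%), 3 of 5 of the immunoproteasome and 5 of 16 of the regulatory particle. Matches were also in 4 of 7 assembly factors, 1 of 3 other activators and inhibitor, and 0 of 2 tissue-specific core genes. Of 7 ubiquitin and E1 enzyme genes 2 were higher and 4 lower, with UBB 1.4-fold and UBA3 1.36-fold lower and UBA6 1.26-fold higher.

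**Figure D5:**
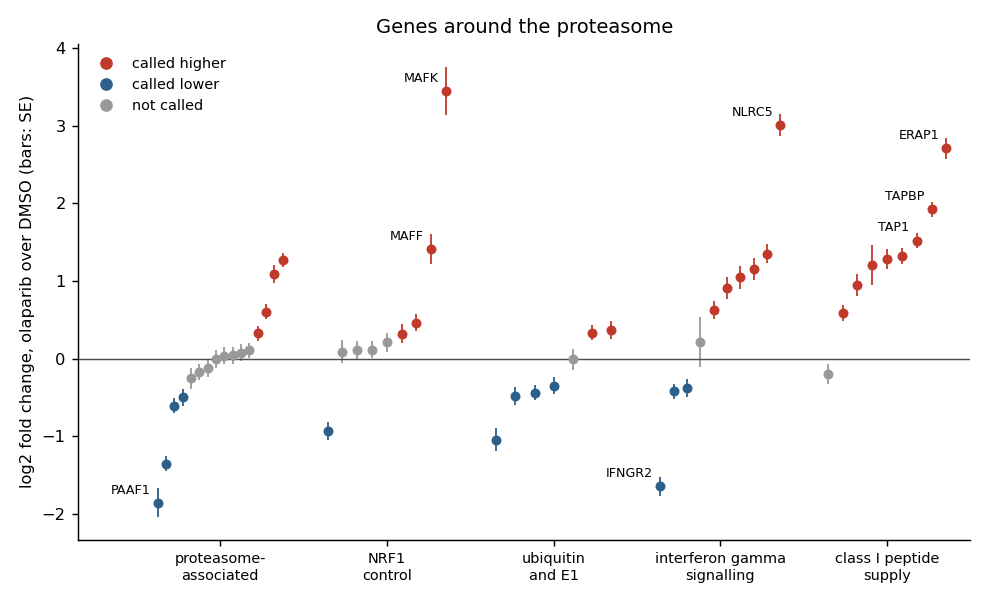
Log2 fold change of olaparib over DMSO for genes of 5 lists around the proteasome, with SE as bars and colour for the call, leaving out genes without a count in a group. NLRC5, ERAP1, TAPBP and TAP1 are high and IFNGR2 low, and the NRF1 list is led by MAFK.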

How the data were processed

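Raw read counts per gene symbol (39396 rows, 6 libraries) are as the authors deposited them, and fastp, STAR and hg38 are named in the submitters' processing notes. Which program counted the reads, with which annotation and strand setting, is not given in the sources used here. Groups and replicate numbers came from the sample titles, which are the column names.

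The quasi-likelihood test of edgeR 4.0.16 (R 4.3.3) was run on genes kept by filterByExpr, scaled by TMM, with robust dispersions and no covariate. P-values were adjusted over 17078 genes (Benjamini-Hochberg) and called at 0.05. SE came from the F statistic. CPM uses the TMM-scaled library size. The fit was tested on simulated counts with a fixed dispersion and changes in a small part of the genes. In these data 75.7% of genes were called, a setting which that simulation does not cover. Alternatives were DESeq2 1.42.0, limma-voom (limma 3.58.1), other scalings and filters, a replicate block, leaving out single libraries, and, added after seeing the data, the removal of overlapped genes. No 2 replicates agreed within sampling noise (chi-square per degree of freedom 4.74 to 68.6). Positions, lengths and overlaps came from GENCODE release 29 and start sites from RefSeq.

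Members and lists were chosen with earlier results of these data known. Every proteasome gene could be named. Values per library were given for the immunoproteasome genes and their partners, POMP, PSMF1, PSME3, PSME4, and the 2 largest called and the smallest difference of each class. Further lists gave up to 4 called genes with the smallest adjusted p, and IRF1, NLRC5, TAP1, NFE2L1, ADRM1 and SEM1 by name. Some genes that this rule selects are left out of the text. Library values of PSMA4, PSMA6 and PSMD10, and PSMB8-AS1, CALR and markers, were chosen after their values were seen. Counts fell on near-identical pseudogenes at 0.0422 to 0.168% of the proteasome gene counts.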

Additional observations from a re-analysis of the deposited data

How the results depend on the processing

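Over 13 refits, 34 of the 47 tested genes kept their direction and call, and the counts of 15 higher and 19 lower genes ranged from 14 to 16 and from 16 to 20 without each library, and were 14 and 18 with the replicate number as a block. With a 2-fold threshold they were 6 and 4. The replicate numbers give no pairing: deviations of libraries with the same number correlated at -0.09, -0.04 and 0.00, and 0 of 3 olaparib libraries with a shared number correlated best with it. The block ended the calls of PSMA6 and PSMD3 and of no other proteasome gene. The immunoproteasome median of 1.92, which is the value of PSMB10, was 1.76 to 2.12 without each library and 2.84 for PSMB8, PSMB9 and PSMB10 alone, and its difference from the core was 3.56 with medians in place of means. The core median was -0.254 without the overlapped genes, which follows from removing 3 alpha genes. No scaling moved the median of all genes by more than 0.068 (log2).

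Some uncalled genes changed sign (log2 fold change); the cause was not tested. Leaving out single libraries gave -0.013 to 0.151 for PSMA7, -0.012 to 0.119 for PSMC1, -0.085 to 0.047 for PSMD7, -0.105 to 0.163 for PSMD12, -0.060 to 0.119 for POMP, -0.027 to 0.138 for ADRM1 and -0.101 to 0.072 for SEM1. With library size alone PSMD12 gave -0.048 and POMP -0.023. With RLE size factors PSMD7 and SEM1 gave 0.011 and 0.008, under the stricter filter 0.020 and 0.017, in limma-voom 0.002 and 0.004, and under the replicate block 0.002 and 0.001.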
